A study of Mus musculus with 16 samples.

Results

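The immediate-early transcription factors Egr1, Egr2 and Egr3 and their corepressors Nab1 and Nab2 were followed through naive mouse T cells that carried or lacked Tsc1. All probe sets (groups of array probes for 1 transcript) that the platform's annotation assigns to these 5 gene symbols were taken. These were 5 genes of the 17097 that have a probe set of their own, read by 8 probe sets among 45037 that are not controls. Egr1 (1417065_PM_at), Egr3 (1421486_PM_at) and Nab2 (1417930_PM_at) have 1 each, Egr2 has 2 (1427682_PM_a_at and 1427683_PM_at) and Nab1 has 3 (1417624_PM_at, 1448781_PM_at and 1438819_PM_at). Where a gene had several, the probe set brightest over all arrays is called its main one.

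EGR proteins are zinc-finger factors whose genes are switched on within minutes to hours of antigen receptor engagement, through calcium and NFAT and through the Ras-ERK pathway acting on serum response factor. NAB proteins bind EGR1, EGR2 and EGR3 directly, recruit the NuRD repressor complex through the remodeller CHD4, and are themselves EGR targets, so that they form a feedback loop. In T cells, EGR2 and EGR3 are known for their part in anergy and tolerance, while EGR1 with NAB2 as a partner has been reported to raise Il2 transcription.

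The cells were naive T cells sorted from mice of C57BL/6 background, wild-type or Tsc1-deficient, with Tsc1 encoding an inhibitor of mTORC1 signalling. CD4 cells of each genotype were profiled at rest (0 h) and after 4 h on plates coated with antibodies against CD3 and CD28, with 3 arrays in each of those 4 groups. CD8 cells of each genotype were profiled at rest only, with 2 arrays in each of those 2 groups, which makes 16 arrays in 6 groups. The Cre driver and Tsc1 allele, the sex and age of the mice, and any pooling of animals are not given in the sources used here. No label states that the arrays of a group are different animals. The p-values therefore refer to array-to-array spread, part of which may be technical, and the number of arrays limits the precision. A sentence of the treatment text names HIF1a deficiency in place of Tsc1 deficiency, while the genotype entries and titles name Tsc1.

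The best-measured Tsc1 probe set was lower in deficient cells by 0.83 log2 units in resting CD4, 1.06 in stimulated CD4 and 0.55 in resting CD8 cells, and limma called all 3. The other 2 Tsc1 probe sets differed little, with means for wild-type and deficient cells of 6.25 and 6.11 at rest, 6.62 and 6.41 at 4 h and 6.14 and 6.23 in CD8 cells for the brighter one. The dimmer one lay near the table's median in all groups, at 3.04 to 3.34. The CD8 call was lost without any 1 of 3 of the 4 CD8 arrays. Cd3e was at a mean log2 signal of 8.54 to 10.1 in the 6 groups, Cd4 was at 7.37 to 8.98 in CD4 groups and 4.35 to 4.80 in CD8 groups, and Cd8a was at 4.54 to 6.42 in CD4 groups and 11.5 to 11.6 in CD8 groups. Of 9 genes checked as signs of activation, 5 rose and 2 fell with stimulation in each genotype. Among all genes 12% rose and 18.5% fell in wild-type cells, and 13.2% and 20.9% in deficient cells. Cd69, Il2ra, Myc and Irf4 were among those that rose. Irf4 rose most, by 6.51 log2 units in wild-type and 5.09 in deficient cells, a difference of −1.43 (limma adjusted p = 0.0048). The 2 that fell with stimulation were Fos (−2.73 log2 units in wild-type and −2.58 in deficient cells) and Junb (−1.71 and −1.56). Between genotypes at rest, Irf4 was called higher in deficient CD4 (0.96) and CD8 cells (1.10), and Myc lower in CD8 cells (−0.80). No other of the 9 was called there, against 4.35% and 4.18% of all genes. At 4 h 0 of 9 were called between genotypes, with 3 past an unadjusted p of 0.05, against 7.56%. Replicate arrays correlated at 0.987 to 0.996. The difference between the 3′ and 5′ Gapdh probe sets, a sign of RNA quality, was 0.956 log2 units in replicate 1 of stimulated Tsc1-deficient CD4 cells and 0.642 in replicate 2 of Tsc1-deficient CD8 cells, against 0.0241 to 0.404 in the other 14 arrays.

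The RefSeq promoter windows of Egr2, Nab1 and Nab2 are printed to show where their letters match motifs of EGR proteins and serum response factor. They are of build GRCm38.p6, 300 bases each, from 250 before to 50 after a transcript start, in the gene's own direction. The Egr2 window lies at chr10:67537619-67537918 on the plus strand, the Nab1 window at chr1:52500399-52500698 on the minus strand and the Nab2 window at chr10:127666654-127666953 on the minus strand. Capitals mark matches to GCGTGGGC (the core bound by EGR proteins), to its G-rich relative GCGGGGGC, or to the CArG box that serum response factor binds. Each was searched on both strands.
Egr2: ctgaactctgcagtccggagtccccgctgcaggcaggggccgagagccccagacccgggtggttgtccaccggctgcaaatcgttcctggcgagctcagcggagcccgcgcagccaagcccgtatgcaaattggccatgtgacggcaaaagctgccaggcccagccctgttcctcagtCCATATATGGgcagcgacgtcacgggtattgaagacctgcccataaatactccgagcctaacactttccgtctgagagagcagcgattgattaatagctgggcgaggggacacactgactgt
Nab1: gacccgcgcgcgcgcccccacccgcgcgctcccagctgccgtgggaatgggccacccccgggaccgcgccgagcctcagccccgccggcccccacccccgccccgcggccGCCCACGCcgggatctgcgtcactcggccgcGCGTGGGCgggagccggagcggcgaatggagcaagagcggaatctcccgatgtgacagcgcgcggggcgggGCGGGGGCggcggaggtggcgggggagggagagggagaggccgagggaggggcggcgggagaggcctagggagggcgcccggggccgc
Nab2: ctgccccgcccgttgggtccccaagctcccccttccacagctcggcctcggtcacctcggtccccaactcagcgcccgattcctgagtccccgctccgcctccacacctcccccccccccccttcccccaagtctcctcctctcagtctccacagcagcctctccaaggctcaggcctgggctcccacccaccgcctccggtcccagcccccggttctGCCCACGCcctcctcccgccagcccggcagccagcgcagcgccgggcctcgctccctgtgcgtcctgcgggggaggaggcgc
The Nab2 window held 1 EGR core, in reverse as GCCCACGC, whose first base lay 32 bases before the start. The Nab1 window held 2, beginning 109 and 140 bases before the start on opposite strands, and 1 GCGGGGGC beginning 38 bases before it. The Egr2 window held no EGR core and 1 CArG box, CCATATATGG, beginning 72 bases before the start. RefSeq listed 5 start windows for Egr2, of which 4 held a CArG box, and 1 window each for Nab1 and Nab2. The Egr2 windows that start at 67537619, 67537620 and 67537680 overlap and share the same CCATATATGG. The window that starts at 67537316 held another match, CCTTTTTTGG. Among 32851 mouse windows of this length, GCGTGGGC occurred in 1.63%, GCGGGGGC in 4.81% and a CArG box in 1.63%. The printed windows were rich in G and C, at 60.0% for Egr2, 81.7% for Nab1 and 74.0% for Nab2. A match is a description of letters, not of binding, and the motifs were chosen after the windows had been seen.

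Nab2, the corepressor that is itself an EGR target, had the largest genotype difference of the 8 member probe sets in stimulated CD4 cells. Its level rose with stimulation in wild-type cells and fell in deficient cells, so that the genotypes were far apart after 4 h. In resting wild-type CD4 cells the log2 signal of Nab2 was 6.68, 6.98 and 6.85 in replicates 1 to 3 (numbered within a group in the order of the samples' accessions), and in resting deficient cells 6.50, 6.45 and 7.03. After 4 h it was 7.38, 7.61 and 7.36 in wild-type cells and 5.39, 5.86 and 6.17 in deficient cells. The arrays of the resting groups overlapped, every stimulated wild-type array lay above all resting CD4 arrays, and every stimulated deficient array lay below them. Arrays of the genotypes did not overlap at 4 h in 21% of all probe sets. Stimulated and resting arrays did not overlap in 41.6% of them in wild-type and 40.1% in deficient cells. The stimulated deficient mean of 5.81 ± 0.39 (SD, n = 3) lay under the wild-type mean of 7.45 ± 0.14 (SD, n = 3), a change of −1.64 ± 0.18 log2 units (SE, 95% interval −2.03 to −1.25). That is 3.13-fold lower (95% interval 2.39 to 4.09, limma adjusted p = 9.7e-05). Of the 17097 genes, 1 had a lower change than Nab2 in this comparison.

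**Figure D1:**
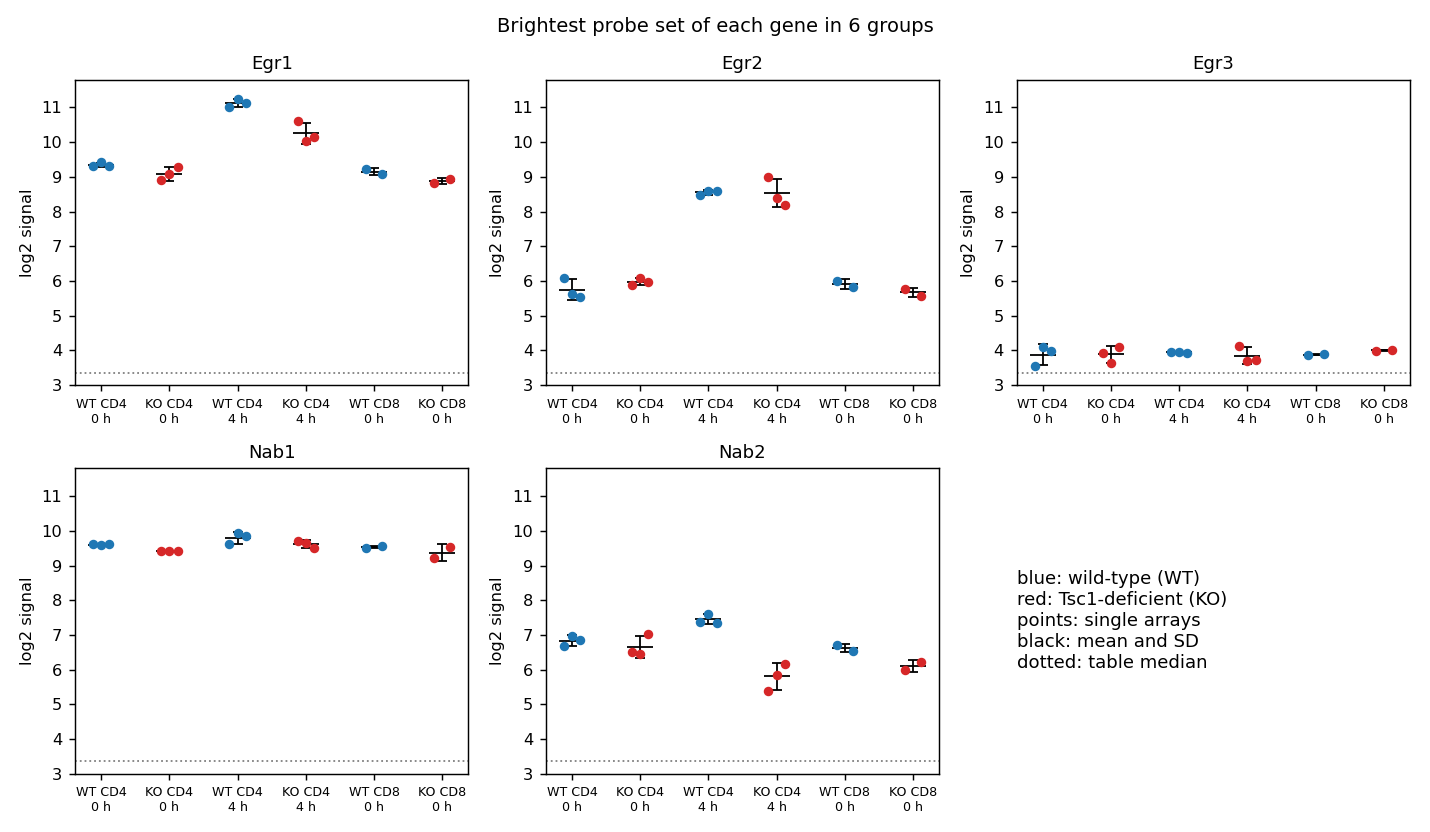
Log2 signal of the main probe set of each member (vertical axis) in the 6 groups (horizontal axis), with 1 point per array and a bar at each group mean. Nab2 spans 5.39 to 6.17 in stimulated Tsc1-deficient CD4 cells and 7.36 to 7.61 in the wild-type ones, while Egr2 reaches 8.20 or more in both.

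The effect of stimulation on Nab2 was tested within each genotype and then between genotypes. Wild-type cells gained 0.61 ± 0.18 log2 units (SE, 95% interval 0.22 to 1.00, limma adjusted p = 0.019), which is 1.53-fold. This call was lost without replicate 1 of resting wild-type cells (0.54, adjusted p = 0.080) and without replicate 2 of stimulated wild-type cells (0.53, adjusted p = 0.083). Deficient cells lost 0.86 log2 units (change −0.86 ± 0.18, SE, 95% interval −1.25 to −0.47, limma adjusted p = 0.0017), and this call held without each of the 6 arrays in turn. The difference between the 2 responses was −1.47 ± 0.26 (SE, 95% interval −2.02 to −0.92, limma adjusted p = 0.020), the 14th lowest of 17097 genes. It missed the threshold without replicate 1 or 3 of resting wild-type cells (adjusted p = 0.065 and 0.062) or without replicate 2 of stimulated wild-type cells (adjusted p = 0.068), with values of −1.39 to −1.47. It was the single call among the 8 member probe sets, 2 of which were past an unadjusted p of 0.05, against 0.249% of all probe sets called lower in this test.

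Before stimulation Nab2 was not called between genotypes. The resting CD4 change was −0.17 ± 0.18 log2 units (SE, limma adjusted p = 0.77). In resting CD8 cells Nab2 was at 6.70 and 6.53 in the wild-type arrays and at 5.98 and 6.22 in the deficient ones. These arrays did not overlap, as held for 41.9% of all probe sets in this comparison of 2 arrays with 2, and the change of −0.51 ± 0.22 (SE, 95% interval −0.99 to −0.03) missed the threshold (limma adjusted p = 0.29).

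**Figure D2:**
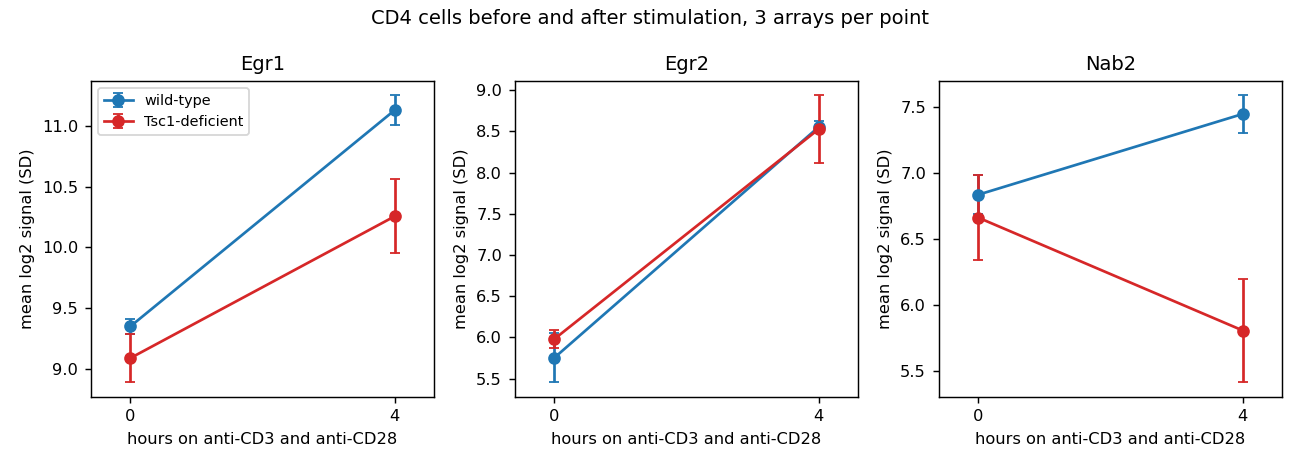
Mean log2 signal (vertical axis) of the main probe sets at 0 h and 4 h (horizontal axis) in CD4 cells of each genotype, with bars of 1 SD over 3 arrays. The Nab2 lines diverge from 6.84 and 6.66 at rest to 7.45 and 5.81, while the Egr2 lines meet at 8.55 and 8.53.

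Egr1, the zinc-finger factor found early in nearly every growth and antigen response, rose with stimulation in both genotypes, and its level at 4 h was lower in deficient cells. Resting CD4 arrays were at a log2 signal of 9.31, 9.42 and 9.32 for the wild type and of 8.90, 9.08 and 9.30 without Tsc1. Stimulated arrays were at 11.01, 11.25 and 11.13 for the wild type and at 10.60, 10.02 and 10.14 without Tsc1. No stimulated array overlapped a resting one of its genotype, as held for 41.6% of all probe sets in wild-type and 40.1% in deficient cells. The lowest stimulated wild-type array lay above the highest deficient one, and the genotypes did not overlap at 4 h in 21% of all probe sets. The rise was 1.78 ± 0.14 log2 units (SE) in wild-type cells, which is 3.42-fold (limma adjusted p = 1.1e-07). It was 1.16 ± 0.14 (SE) in deficient cells, which is 2.24-fold (limma adjusted p = 7.2e-06). At 4 h the deficient mean was 1.83-fold lower (95% interval 1.49 to 2.25), a change of −0.87 ± 0.14 log2 units (SE, limma adjusted p = 0.0014).

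The difference between the Egr1 responses of the 2 genotypes was −0.61 ± 0.20 (SE, 95% interval −1.03 to −0.19) and missed the threshold (limma adjusted p = 0.27). Without the 2 arrays of high Gapdh difference it was −0.78 (limma adjusted p = 0.045). The genotype change of Egr1 was −0.26 ± 0.14 (SE, limma adjusted p = 0.45) in resting CD4 and −0.27 ± 0.17 (SE, limma adjusted p = 0.50) in resting CD8 cells. The CD8 arrays were at 9.22 and 9.07 for the wild type and at 8.81 and 8.93 without Tsc1. They did not overlap, as held for 41.9% of all probe sets in this comparison.

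Egr1 and Nab2 were the 2 of 8 member probe sets called at 4 h between genotypes, both lower, against 2.49% of all probe sets called lower. The share among members describes 8 probe sets of 5 genes that were chosen with earlier results known.

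Egr2, the factor most tied to anergy and peripheral tolerance, rose in both genotypes to overlapping levels. The main Egr2 probe set was at a log2 signal of 6.09, 5.63 and 5.53 in resting wild-type CD4 cells and 5.88, 6.10 and 5.97 in resting deficient ones. After 4 h it was at 8.47, 8.59 and 8.60 for the wild type and at 8.99, 8.39 and 8.20 without Tsc1. Every stimulated array exceeded every resting one. Within a genotype, stimulated and resting arrays did not overlap in 41.6% of all probe sets in wild-type and 40.1% in deficient cells. The stimulated genotypes overlapped, with both the highest and the lowest array in the deficient group. The rise was 2.80 ± 0.18 log2 units (SE) in wild-type cells, or 6.97-fold (limma adjusted p = 1.1e-08), and 2.55 ± 0.18 (SE) in deficient cells, or 5.85-fold (limma adjusted p = 2.3e-08). These were the 24th and 50th highest changes of 17097 genes.

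At 4 h the Egr2 genotype difference was −0.03 ± 0.18 log2 units (SE, limma adjusted p = 0.97), with a 95% interval of −0.40 to 0.35. The difference between the responses was −0.25 ± 0.25 (SE, 95% interval −0.78 to 0.28, limma adjusted p = 0.83). These intervals leave room for moderate differences in either direction. The second Egr2 probe set rose by 2.87 ± 0.22 in wild-type and by 2.63 ± 0.22 log2 units (SE) in deficient cells, both called. Its genotype change at 4 h was −0.21 ± 0.22 (SE) and was not called.

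Egr3, a close relative of Egr2 and another gene of the anergy programme, showed no called change. Its 16 arrays lay between 3.54 and 4.13 log2 units, near the median of 3.36 over the whole table. The stimulated wild-type arrays, at 3.94, 3.96 and 3.91, fell inside the range of the resting ones, at 3.54, 4.11 and 3.97. The change with stimulation was 0.07 ± 0.15 log2 units (SE, 95% interval −0.26 to 0.39) in wild-type cells and −0.04 ± 0.15 (SE, 95% interval −0.36 to 0.29) in deficient cells.

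Nab1, the second corepressor, differed among its 3 probe sets. The main one, at 9.58 to 9.62 log2 units in resting wild-type CD4 cells and 9.61 to 9.94 in stimulated ones, changed by 0.19 ± 0.11 (SE, limma adjusted p = 0.22) in wild-type and 0.20 ± 0.11 (SE, limma adjusted p = 0.19) in deficient cells. The probe set 1448781_PM_at was at 6.53, 6.75 and 6.75 in resting and 7.40, 7.63 and 7.57 in stimulated wild-type CD4 cells. In deficient cells it was at 6.50, 6.69 and 6.73 at rest and 6.90, 7.58 and 7.50 after stimulation.

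Stimulated arrays of 1448781_PM_at lay above the resting ones within each genotype, where 41.6% (wild-type) and 40.1% (deficient) of all probe sets did not overlap. It rose by 0.86 ± 0.15 (SE, limma adjusted p = 0.00040) in wild-type and by 0.69 ± 0.15 log2 units (SE, limma adjusted p = 0.0021) in deficient cells. The third probe set, 1438819_PM_at, ranged from 4.95 to 6.24 over the 16 arrays and was called in no comparison. Which transcripts each Nab1 probe set reads was not analysed here. The mean of the 3 probe sets rose by 0.32 (adjusted p = 0.022) and 0.44 (adjusted p = 0.0021).

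**Figure D3:**
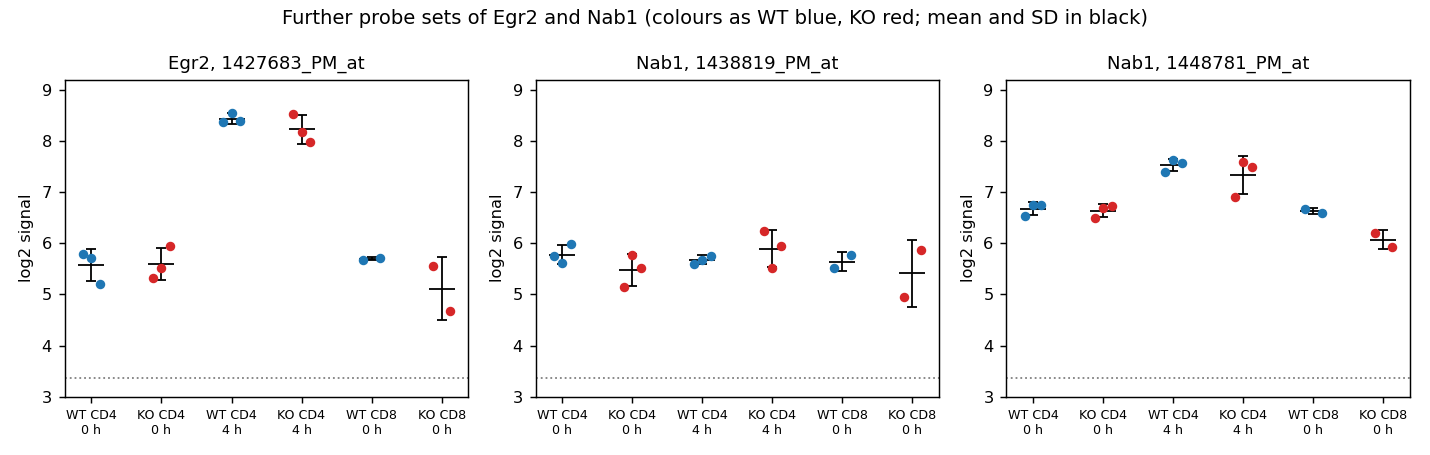
Log2 signal (vertical axis) of the second Egr2 probe set and the other 2 Nab1 probe sets in the 6 groups (horizontal axis), with 1 point per array and a bar at each group mean. Egr2 and Nab1 1448781_PM_at lie higher after stimulation in both genotypes, and Nab1 1438819_PM_at overlaps throughout.

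Nab1 did not differ by genotype beyond the test in CD4 cells. Its main probe set was lower in deficient cells by 0.18 ± 0.11 log2 units (SE) at rest and at 4 h and by 0.16 ± 0.13 (SE) in CD8 cells, none called by limma. In resting CD8 cells 1448781_PM_at was at 6.67 and 6.60 for the wild type and at 6.20 and 5.94 without Tsc1, a change of −0.57 ± 0.19 (SE, limma adjusted p = 0.13). With the Gapdh difference as a covariate this change was −0.52 and passed (limma adjusted p = 0.018).

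**Figure D4:**
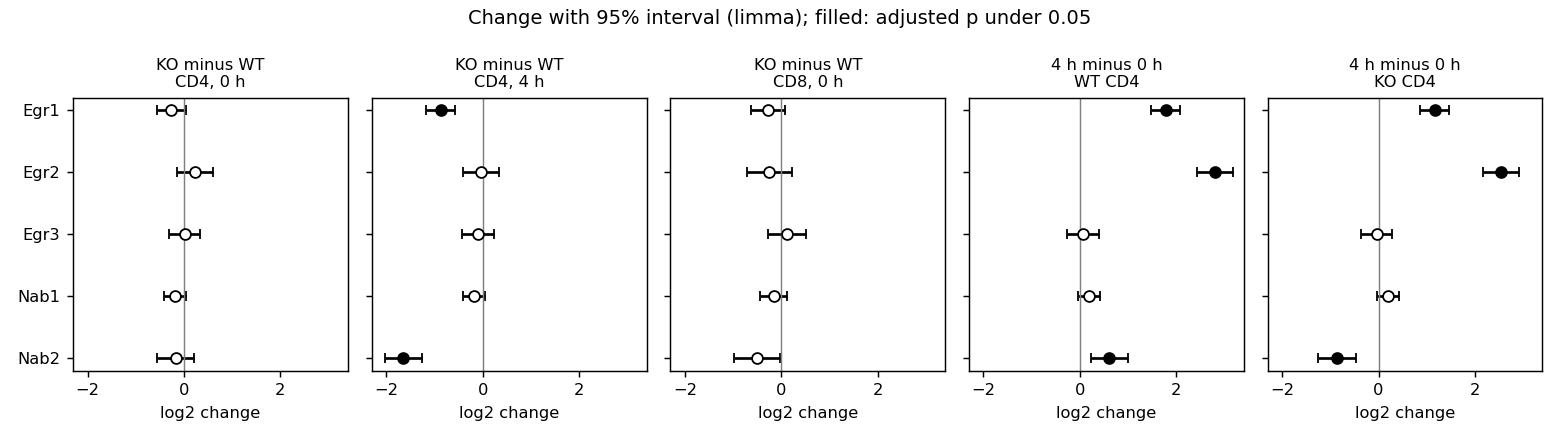
Log2 change (horizontal axis) of the main probe set of each member (vertical axis) in the genotype and stimulation comparisons. Bars are 95% intervals from limma, and points are filled at adjusted p under 0.05. Nab2 at −1.64 and Egr1 at −0.87 are the filled points of the genotype comparison at 4 h.

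Stimulation of wild-type CD4 cells raised 5 of the 8 member probe sets, those of Egr1, Egr2 (2 probe sets), Nab1 1448781_PM_at and Nab2, against 13.3% of all probe sets called higher. In deficient cells 4 rose and 1, Nab2, fell, against 15.3% called higher and 15.1% called lower. With the main probe set alone, 3 of 5 rose in wild-type cells, against 12% of all genes. In deficient cells 2 of 5 rose and 1 fell, against 13.2% and 20.9%.

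At rest limma called 0 of 8 between genotypes in CD4 cells, 0 of which were past an unadjusted p of 0.05, against 3.05% of all probe sets called. In CD8 cells it called 0 of 8, with 3 past an unadjusted p of 0.05, against 3.11%. The test of whether the genotype change differed between CD8 and CD4 cells called 0 of 8, with 1 past an unadjusted p of 0.05, against 0.0466%. Comparing CD8 with CD4 cells at rest, 0 of 8 were called in wild-type cells, with 0 past an unadjusted p of 0.05 (2.99% of all probe sets called), and 0 of 8 in deficient cells, with 2 past it (3.55%).

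Over the 6 groups Egr1 was highest in stimulated wild-type CD4 cells (11.13 ± 0.12, SD, n = 3), then in stimulated deficient cells (10.26 ± 0.30, SD, n = 3), and then in the resting groups from 9.35 down to 8.87. Neighbours among the lowest 3 groups overlapped, while the other steps did not. For Egr2 the stimulated groups overlapped at the top and all 4 resting groups lay below them. Nab2 had another order, with stimulated wild-type CD4 cells highest at 7.45 and stimulated deficient CD4 cells lowest at 5.81. The latter overlapped resting deficient CD8 cells at 6.10, and the resting wild-type and deficient CD4 and wild-type CD8 groups overlapped one another between 6.84 and 6.61. The main Nab1 probe set ran from 9.80 in stimulated wild-type CD4 cells to 9.37 in deficient CD8 cells, and Egr3 from 4.00 in deficient CD8 cells to 3.85 in stimulated deficient CD4 cells, with most neighbours overlapping. Levels were not compared between probe sets, since each has its own binding.

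The genes whose main probe set most resembled each member over the 16 arrays were named by Pearson correlation, among genes whose group means spanned at least 1 log2 unit. Egr2 was followed most closely by Nr4a3, an orphan nuclear receptor of the immediate-early class (r = 0.989), by Ak6 (0.988) and by Zeb1 (0.987). Egr1 was followed by Ttpal (0.971), Ppp1r10 (0.967) and Mbtd1 (0.965). Nab2 was followed by Hdac5, a class II histone deacetylase (0.846), by Tsc1 itself (0.829) and by Cldn10 (0.804). For Nab1 the nearest were Bach2, Usp4 and Atn1 (0.854, 0.849 and 0.848), and for Egr3 no gene passed 0.461. These correlations are descriptions over 16 arrays that share their group structure.

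Serum response factor and NFAT, which drive Egr transcription, were read from fixed lists. Of 5 measured genes for serum response factor and its cofactors, 1 rose and 2 fell with stimulation in each genotype, against 12% of all genes higher and 18.5% lower in wild-type cells and 13.2% and 20.9% in deficient cells. Srf fell by 1.73 log2 units in wild-type and by 1.29 in deficient cells, and Elk3, an ETS partner of it, fell by 2.72 and fell by 2.35. Elk4, another ETS partner, rose by 0.72 and by 0.35. Between genotypes at 4 h 1 of 5 was lower, Elk4 by 0.50 log2 units, a call lost without 5 of the 6 arrays in turn. Of genes with a main probe set, 3.01% were called lower there.

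Among 4 NFAT genes, 1 was called lower at 4 h in deficient cells, against 3.01% of all genes. This was Nfatc1, which is itself induced by T cell receptor signals, lower by 0.83 ± 0.11 log2 units (SE, limma adjusted p = 0.00049). The call held without each of the 6 arrays in turn. The others were not called (Nfatc2 0.15, Nfatc3 0.24 and Nfat5 −0.14). With stimulation 1 of 4 rose and 0 fell in wild-type cells, against 12% and 18.5% of all genes. In deficient cells 1 rose and 1 fell, against 13.2% and 20.9%. Nfat5 was the one that rose, by 0.61 in wild-type and 0.74 in deficient cells. The stimulation change of Nfatc1 was 0.04 ± 0.11 (SE, limma adjusted p = 0.88) in wild-type cells and fell by 0.64 ± 0.11 (SE, limma adjusted p = 0.00035) in deficient cells, and the difference between these responses was not called (−0.68 ± 0.16, SE, limma adjusted p = 0.098). Of 9 measured Ras-ERK genes, 0 were called between genotypes at 4 h, with 3 past an unadjusted p of 0.05, against 7.56% of all genes. With stimulation 4 rose and 2 fell in wild-type cells (12% and 18.5% of all genes) and 5 rose and 2 fell in deficient ones (13.2% and 20.9%). Braf and Sos1 were among those that rose, and Araf and Rasgrp1 among those that fell.

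Of 13 measured subunits of NuRD, the complex that NAB proteins recruit, limma called 0 between genotypes at 4 h, with 3 past an unadjusted p of 0.05, against 7.56% of all genes called. Stimulation raised 3 and lowered 3 in wild-type cells, and raised 4 and lowered 2 in deficient cells, against the same shares of all genes (12% and 18.5%, and 13.2% and 20.9%). Chd4, the subunit NAB2 contacts, rose by 0.44 log2 units in wild-type and by 1.06 in deficient cells, and Chd3 fell by 1.36 and by 1.16. The other relatives, Egr4 and Wt1, were called in no genotype or stimulation comparison, with group means below the table's median.

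Genes reported as EGR targets in T cells moved in both directions between genotypes at 4 h. Of 23 measured, 5 were higher and 3 lower in deficient cells, against 4.56% higher and 3.01% lower among all genes, and the median change over the 23 was 0.0084 log2 units, against −0.00071 over all genes. Id3, an inhibitor of E proteins and an EGR1 target in thymocytes, was lower by 1.60 ± 0.26 log2 units (SE). Cdkn1a, a cell cycle inhibitor, was higher by 1.27 ± 0.24 (SE), Ccl1, a chemokine, by 1.02 ± 0.19 (SE), and Fasl, a death ligand, by 0.82 ± 0.17 (SE). These 4 calls held without each of the 6 arrays in turn. Socs3, a cytokine-signal inhibitor, was higher by 1.22 ± 0.29 (SE), and its call was lost without 4 of the 6 arrays. Calls of Socs1, Dgka and Bcl6 were lost without 3, 3 and 5 of them. Fasl, Socs1, Dgka and Bcl6 were outside the naming rule and were chosen after their values were seen.

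Il2, the gene of the T cell growth factor interleukin-2, was not called between genotypes at 4 h (−0.33 ± 0.21, SE, limma adjusted p = 0.49). It rose by 5.01 log2 units in wild-type and by 4.40 in deficient cells. With stimulation 9 targets rose and 5 fell in wild-type cells, and 11 rose and 4 fell in deficient cells, against 12% higher and 18.5% lower, and 13.2% higher and 20.9% lower, among all genes. The test of the difference between responses called 0 of 23, with 5 past an unadjusted p of 0.05, against 0.69% of all genes called in either direction. In resting CD4 cells Bcl6 and Nrn1 were called lower, 2 of 23 against 1.29% of all genes, and both calls were lost without any 1 of the 6 arrays.

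**Figure D5:**
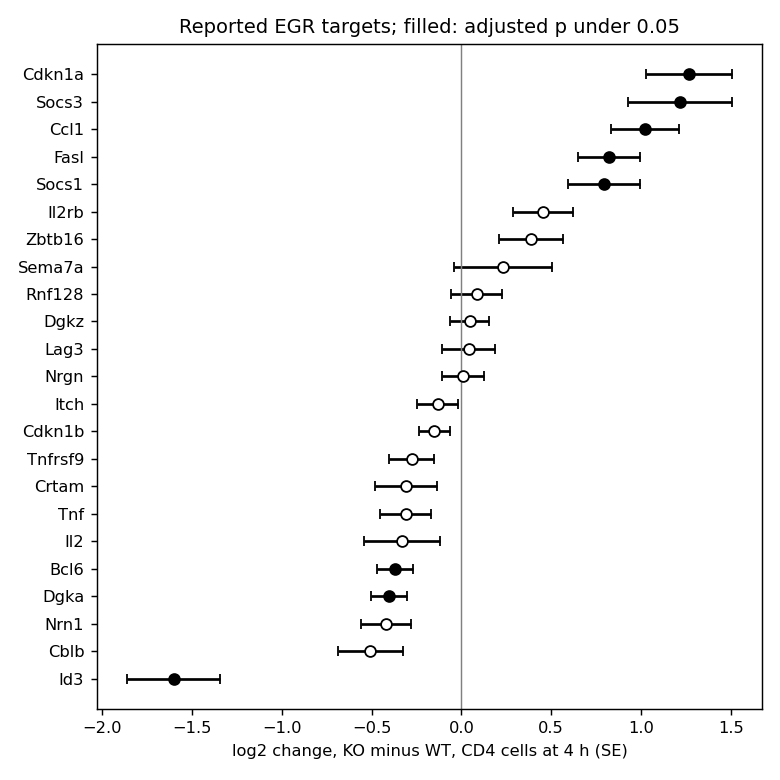
Log2 change at 4 h, Tsc1-deficient minus wild-type CD4 cells (horizontal axis), for 23 reported EGR targets (vertical axis), with bars of 1 SE and filled points at adjusted p under 0.05. Cdkn1a at 1.27 and Id3 at −1.60 stand at the ends, with 5 filled points above 0 and 3 below.

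Some markers of other cells were higher in deficient cells at 4 h, where Nab2 and Egr1 were lower. The neutrophil list mean was also higher at rest. There the changes of Nab2 (−0.17 in CD4 and −0.51 in CD8 cells) and of Egr1 (−0.26 and −0.27) were not called. Of 11 neutrophil markers 4 were called higher in deficient cells, against 4.56% of all genes, led by S100a8 (3.11 log2 units) and Ngp (3.03). Elane (means 2.67 in wild-type and 2.71 in deficient cells) and Prtn3 (3.405 and 3.438) hardly differed. The mean over the list was 3.04 to 3.39 in wild-type and 4.08 to 5.24 in deficient arrays. At rest the mean of that list was 3.15 to 3.87 in wild-type and 4.02 to 5.48 in deficient CD4 arrays, and 3.22 to 3.95 and 4.13 to 4.92 in CD8 arrays. None of the 11 was called there by limma, with 8 and 4 past an unadjusted p of 0.05. Of all genes 4.35% were called at rest in CD4 and 4.18% in CD8 cells. Of 11 monocyte, macrophage or dendritic markers 4 were called higher at 4 h, against 4.56% of all genes, among them Lyz2 (1.18) and Cd68 (0.76). The mean of this list was 3.70 to 3.79 in wild-type and 4.02 to 4.21 in deficient arrays. In each genotype 6 of 11 members lay above the table's median, and Cd14 was among those below it. The T cell marker mean was 10.3 to 10.4 in wild-type and 9.97 to 10.2 in deficient arrays, and Cd3g was lower by 0.83. Of markers of other lymphocytes, 0 of 6 for B cells (2 past an unadjusted p of 0.05), 1 of 5 for NK cells and 2 of 5 for regulatory T cells were called, the last 3 higher. The share of all genes called at 4 h was 7.56%, and the median change of the NK list was −0.016 log2 units. In such bulk samples fewer cells of a type and less RNA per cell cannot be told apart, and the part of these markers in the Nab2 and Egr1 results was not tested. Replicate 1 of stimulated deficient cells, which had the highest Gapdh difference, also had the lowest Nab2 and the highest Egr1 and Egr2 signal of its group. Without it the Nab2 genotype change at 4 h was −1.44 (limma adjusted p = 0.00030). Over 17 alternatives the Nab2 change at 4 h was −1.83 to −1.44 and the Egr1 change −1.04 to −0.76.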

How the data were processed

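Log2 signals were deposited by the authors for single-colour Affymetrix arrays, 1 biotin-labelled sample each. Per the submitters' processing notes they were made with Partek 6.5 and RMA, which corrects background, normalizes between arrays and summarizes probes. No genome build is named in the sources used here. RMA compresses changes of dim probe sets.

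Genes were named from the platform's annotation table. Of 45141 probe sets, 104 controls were left out, 28898 named 1 gene, 551 several and 15588 none. The deposited log2 values were used as given. limma 3.58.1 (R 4.3.3) was fitted once to all 16 arrays and 45037 probe sets with 6 group means, lmFit and eBayes. Differences were tested in 9 comparisons and adjusted by Benjamini-Hochberg within each, with calls at adjusted p under 0.05. The fit was tested on simulated data with known changes of 0.5 and 1 log2 units. These were given to a small part of the brighter probe sets (mean above the median). All others had no change, unlike in the data, so the shares recovered may differ from those in the real comparisons. The fit recovered 30% and 81% of the known changes for genotype at 4 h, and 8% and 61% for genotype in CD8 cells. For the test between responses it recovered 2% and 47%, and for the lineage difference of the genotype change 1% and 37%. A result without a call therefore does not show that there was no change of such size.

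The named genes were the members, the list genes with the largest called changes and the 3 genes most like each member. Members and lists were chosen with earlier results of these data known. Alternatives left out arrays, dim probe sets or the Gapdh-high arrays, added the Gapdh difference as covariate, changed the probe set rule, threshold or scaling, or blocked on couples of arrays.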

Additional observations from a re-analysis of the deposited data

Results flagged for a closer look

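The response of Nab2 to stimulation differed between genotypes by a direct test of that difference, −1.47 ± 0.26 log2 units (SE, limma adjusted p = 0.020, n = 3 arrays in each of 4 groups). The 3 stimulated wild-type arrays lay above all 6 resting CD4 arrays and the 3 stimulated Tsc1-deficient arrays lay below them. The call was lost without any 1 of 3 wild-type arrays, with values of −1.39 to −1.47.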

How the results depend on the processing

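The labels give no shared replicate numbers, but titles of CD4 arrays end in codes that run consecutively over a 0 h and a 4 h array of 1 genotype. Such couples were used as a replicate block, an alternative chosen after seeing the data. Deviations from the group means correlated at 0.0301 to 0.0769 within the 6 couples. Each array was compared only with the 3 arrays of its genotype at the other time. Of these, the other array of the couple was closest for 11 of 12 arrays. With a choice of only 3 and such low correlations this is a weak hint of pairing, from the data and not from the design. With the block the members called were 5, 5 and 1 for wild-type stimulation, deficient stimulation and the test between responses, as without it, and Nab2 kept its calls (adjusted p = 0.0027, 0.00026 and 0.013). Over all probe sets the block gave 12501, 14069 and 92 calls against 12112, 13683 and 203. Of 1287 values recomputed in all, 236 belonged to calls, of which 226 kept direction and call and 10 lost the call; 1051 belonged to values not called, of which 6 became calls. No called value changed sign. Direction was judged for called values alone: 59 uncalled values changed sign, the largest from 0.23 in size. With 1 probe set per gene, and with a 2-fold threshold, the count called was 3 for stimulation of either genotype. The 2-fold threshold left 1 genotype call at 4 h. The Gapdh covariate gave 1 call between genotypes in CD8 cells. Without the 2 arrays of high Gapdh difference the test between responses gave 2 calls. Leaving out 1 array gave 0 to 1 for the test between responses, 0 to 1 for genotype in CD8 cells (without replicate 1 of deficient CD8 cells, the second Egr2 probe set at −1.03, adjusted p = 0.045) and 0 to 1 for deficient CD8 against CD4 cells (the same array and probe set, −0.92, adjusted p = 0.039). The cause was not tested. Leaving out a CD8 array leaves 1 in its group, which is assumed to vary like the others. Signal over background limits Egr3.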
